A study of Mus musculus with 16 samples.

Results

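Distal regions that gained acetylation of histone H3 lysine 27 (H3K27ac) during early fat cell differentiation, and in which no acetylated region was listed when SETD5 was expressed from a retrovirus, were described. The regions come from ChIP-seq of 3T3-L1 preadipocytes, a mouse fibroblast-like line committed to the fat lineage. They were taken from lists of enriched islands, that is, stretches of enriched 200-bp windows, joined across short gaps, called by the authors in each library. Islands were thus selected on H3K27ac of empty-virus cells at 0 h and 48 h and of SETD5 cells at 48 h. An island of empty-virus cells at 48 h, replicate A, was chosen when it overlapped an island of replicate B by at least 1 bp, overlapped no island of empty-virus cells at 0 h and no island of SETD5 cells at 48 h in either replicate, and lay outside every annotated promoter (1000 bp upstream to 100 bp downstream of a transcript start). Of 31292 islands of replicate A, 28364 were shared with replicate B, 17588 of these were distal and 5761 were distal and without a 0 h island. SETD5 cells had no island at 48 h in either replicate at 1370 of the 5761 (23.8%), called SETD5-absent islands below. This share was 31.7% without replicate A, 37.0% without replicate B and 8.36% among islands above the median score of their lists. A further 3727, called SETD5-kept islands, had one in both replicates and serve as the comparison, and 664 had one in a single replicate.

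H3K27ac was profiled in preadipocytes transduced with an empty retrovirus or with a virus encoding SETD5 tagged with V5, at 0 h and at 48 h after induction with insulin, dexamethasone and isobutylmethylxanthine (MDI), in 2 biological replicates each. Both viral lines were stably transduced, with SETD5 driven by the viral promoter, so virus and cell line cannot be told apart. SETD5-V5 was profiled with an antibody to the tag in transduced cells before (0 h) and 6 h after induction, in 2 replicates, and H3K4me1 (0 h and 48 h) and endogenous SETD5 (0 h and 6 h, antibody IgG-F2104) in 1 library each. The labels give no virus for replicate A of SETD5-V5 and name the SETD5 virus for both H3K4me1 libraries, whereas the study presents the latter as cells without virus. Which cells the H3K4me1 lists stand for was therefore not settled. The H3K27ac lists held 31292 to 39949 islands, the H3K4me1 lists 50276 (0 h) and 49926 (48 h), the SETD5-V5 lists 16054 (A) and 6666 (B) at 0 h and 35573 (A) and 27220 (B) at 6 h, and the endogenous SETD5 lists 2132 at 0 h and 3293 at 6 h. The lists carry no read counts, so depth within an island is unknown, and a region without an island was below the caller's threshold in that library.

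Enhancers are stretches of DNA, often far from a gene, at which transcription factors raise its transcription. H3K4me1 marks enhancers that are primed or active, and H3K27ac is added when they become active. SETD5 is a SET-domain protein that associates with the NCoR-HDAC3 corepressor, whose HDAC3 subunit removes acetyl groups from histones, and C/EBP proteins and PPARγ, which binds DNA with RXR, are the factors that drive the adipocyte programme. Dexamethasone acts through the glucocorticoid receptor.

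Sequences of 3 SETD5-absent islands are shown first because these are the highest-scoring SETD5-absent islands, among those near genes of the lists or carrying both H3K4me1 and SETD5-V5, that hold a C/EBP match (TTGCNNAA, either strand). Each is 100 bp of the plus strand of the mm9 (NCBIM37) genome around the match nearest to the middle of the island, named by the protein-coding gene with the nearest start, with the match in capitals.
Mgll, chr6:88680981-88681080: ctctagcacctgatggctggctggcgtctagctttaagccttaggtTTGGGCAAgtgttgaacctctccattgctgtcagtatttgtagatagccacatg
Lima1, chr15:99688118-99688217: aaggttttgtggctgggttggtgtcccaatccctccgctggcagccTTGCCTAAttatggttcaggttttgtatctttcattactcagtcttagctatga
Agpat2, chr2:26464704-26464803: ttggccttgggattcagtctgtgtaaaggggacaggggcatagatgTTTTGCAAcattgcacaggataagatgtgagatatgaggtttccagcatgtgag

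The windows of 13 islands with a PPAR-RXR direct repeat in their central 1000 bp and a protein-coding start within 50 kb are shown because this motif was more frequent in SETD5-absent than in SETD5-kept islands. They are 41 bp of the plus strand of mm9, with the repeat in capitals.
Radil, chr5:143031727-143031767: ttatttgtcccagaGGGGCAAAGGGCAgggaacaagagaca
Dhrs7b, chr11:60658366-60658406: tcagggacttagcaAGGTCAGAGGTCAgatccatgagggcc
Slc25a44, chr3:88222002-88222042: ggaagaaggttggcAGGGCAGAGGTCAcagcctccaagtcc
Gab2, chr7:104224037-104224077: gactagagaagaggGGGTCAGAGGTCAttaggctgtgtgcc
Chst15, chr7:139424769-139424809: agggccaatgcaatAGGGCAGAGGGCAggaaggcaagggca
Fabp12, chr3:10238781-10238821: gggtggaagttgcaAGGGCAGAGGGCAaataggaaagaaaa
Tcfeb, chr17:47887238-47887278: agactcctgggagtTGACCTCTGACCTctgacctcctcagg
Tac4, chr11:95116796-95116836: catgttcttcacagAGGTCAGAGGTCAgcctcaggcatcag
Dlx4, chr11:95027163-95027203: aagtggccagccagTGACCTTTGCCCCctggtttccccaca
Cdh13, chr8:120797258-120797298: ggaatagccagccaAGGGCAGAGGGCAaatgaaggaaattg
Tppp3, chr8:107998209-107998249: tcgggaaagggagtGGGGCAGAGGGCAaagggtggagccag
Gm10941, chr10:76698201-76698241: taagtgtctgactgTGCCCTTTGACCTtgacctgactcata
Slc39a11, chr11:113416296-113416336: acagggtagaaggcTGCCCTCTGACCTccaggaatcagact

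SETD5-absent islands were shorter and ranked lower than the islands that SETD5 cells also formed. Their median length was 2600 bp (quartiles 2000 and 3200 bp) in replicate A and 2000 bp in replicate B, against 2800 and 2600 bp for SETD5-kept islands. Their median score percentile, that is, the rank of the caller's score among all islands of its list, was 26.2 (replicate A) and 24.5 (replicate B), against 37.8 and 45.8 for SETD5-kept islands. In replicate A, 86.6% of SETD5-absent and 67.5% of SETD5-kept islands lay below the middle of the list. Length and score of these lists entered the selection, so these values describe the islands and were not tested. At the edge of the rule, 8 SETD5-absent islands abutted a SETD5 48 h island, 96 had one within 1000 bp, and the median distance to the nearest was 9.6 kb. Just across it, 11 SETD5-kept islands shared no more than 200 bp with the SETD5 48 h islands of a replicate, and 200 bp was the smallest overlap. The alternative that allowed no SETD5 48 h island within 1000 bp left 1295 SETD5-absent islands, so it did not remove all of the 96. It removed those less than 1000 bp away, whereas the 96 include those at exactly 1000 bp.

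SETD5-V5 was less frequent at SETD5-absent islands than at SETD5-kept islands. At 6 h of differentiation SETD5-V5 islands overlapped 27.9% (382, replicate A) and 21.3% (292, replicate B) of SETD5-absent islands, against 63.5% and 49.7% of SETD5-kept islands. The islands found in a single SETD5 replicate lay between them, with 48% and 39.0%. In both replicates, the share in SETD5-absent islands was thus below that in either other class. Overlap in both replicates was found at 18.2% of SETD5-absent islands (250, Wilson 95% interval 16.3 to 20.4%) and 46.9% of SETD5-kept islands (1749, 45.3 to 48.5%), against 38.7% of all 5761 distal induced islands. The odds ratio, adjusted for length and score by binomial logistic regression, was 0.254 (95% interval 0.217 to 0.296, adjusted p = 1.21e-65, Benjamini-Hochberg over 16 tests). It was 0.396 without replicate A. With every list held to its highest-scoring islands, those of the selection included, the shares were 5.67% and 15.6%, with an odds ratio of 0.300. Islands are not replicates, and the intervals and p-values of these fits describe these libraries. No SETD5-V5 island was found in either replicate at 69.1% (946) of SETD5-absent islands and at 33.8% (1260) of SETD5-kept islands.

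**Figure D1:**
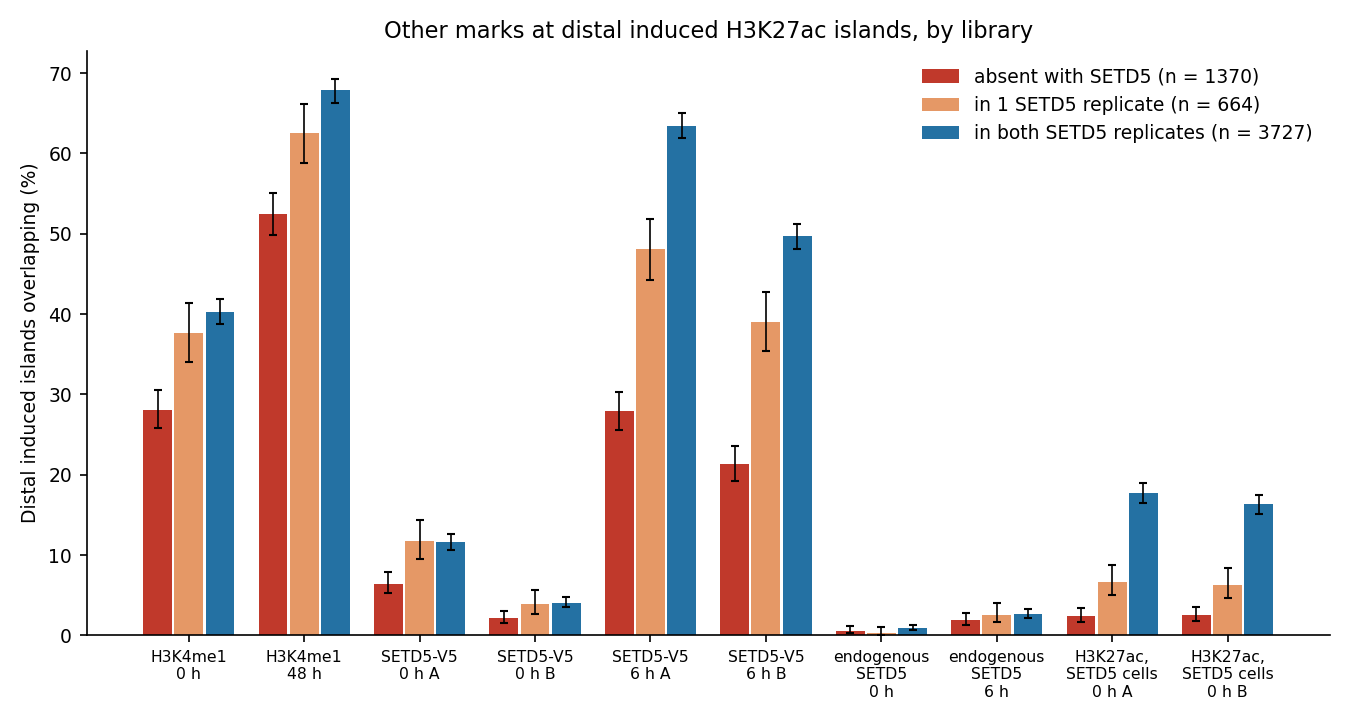
Share of distal induced islands (%, y axis) that overlap an island of each of 10 libraries not used by the selection (x axis), for the 1370 SETD5-absent islands, the 664 islands in 1 SETD5 replicate and the 3727 SETD5-kept islands; bars are shares with Wilson 95% intervals. SETD5-V5 at 6 h overlaps 27.9% and 21.3% of the SETD5-absent islands and 63.5% and 49.7% of the SETD5-kept islands.

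Before differentiation, SETD5-V5 was rarely found at these regions. At 0 h its islands overlapped 6.42% (88, replicate A) and 2.12% (29, replicate B) of SETD5-absent islands, against 11.6% and 4.08% of SETD5-kept islands. Overlap in both replicates was found at 1.82% of SETD5-absent, 3.25% of SETD5-kept and 2.92% of all distal induced islands, with an adjusted odds ratio of 0.461 (0.296 to 0.719, adjusted p = 0.00148, binomial regression). This call was lost with length as the sole covariate (0.622, adjusted p = 0.0608 in the binomial regression) and kept with no covariates (0.554, adjusted p = 0.0178). It was also lost without the islands that SETD5 cells had at 0 h (0.595, an alternative added after the data were seen). From 0 h to 6 h the mean share of SETD5-absent islands with SETD5-V5 went from 4.27% ± 3.05 to 24.6% ± 4.65 (SD, 2 libraries each), a difference of 20.3 percentage points. Both 6 h libraries were above both 0 h libraries, and the exact permutation test, two-sided, gave p = 0.333, the smallest that 2 against 2 libraries allow. The 6 h lists are longer than the 0 h lists, and with every list held to its 6000 highest-scoring islands the difference was 3.98 points. Endogenous SETD5 had few islands. At 6 h it overlapped 1.90% (26) of SETD5-absent, 2.68% (100) of SETD5-kept and 2.48% of all distal induced islands, and the adjusted odds ratio of 0.669 (0.428 to 1.05) did not pass the test (adjusted p = 0.115, binomial regression). It was 1.05 without replicate A.

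H3K4me1 was likewise less frequent at SETD5-absent islands. At 0 h it was present at 28.1% (385) of SETD5-absent islands and 40.3% (1501) of SETD5-kept islands, against 37.1% of all distal induced islands, with an adjusted odds ratio of 0.588 (0.512 to 0.676, adjusted p = 3.80e-13, binomial regression). At 48 h it was present at 52.5% (719) and 67.8% (2528), against 63.6% of all, with an odds ratio of 0.609 (0.534 to 0.695, adjusted p = 5.33e-13, binomial regression). Among all 17588 distal 48 h islands, most of which had H3K27ac at 0 h, H3K4me1 was listed at 67.2% at 0 h and 72.8% at 48 h. SETD5-absent islands therefore fell into 4 states. H3K4me1 was present at both times at 24.6% (337), at 48 h alone at 27.9% (382), at 0 h alone at 3.50% (48), and at neither time at 44.0% (603). Among SETD5-kept islands the state without H3K4me1 held 28.5% (1061). With 1 library per time, the differences between 0 h and 48 h have no replicate check.

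Both marks went together within the SETD5-absent islands. Those with H3K4me1 at both times carried SETD5-V5 at 6 h in both replicates in 25.2% of cases (85), those with H3K4me1 at 48 h alone in 23.3% (89), and those without H3K4me1 in 10.9% (66). The same states of SETD5-kept islands gave 58.7%, 47.0% and 31.3%, so that SETD5-V5 was less frequent at SETD5-absent islands in each of them. In all, 34.9% (478) of SETD5-absent islands had neither H3K4me1 at any time nor SETD5-V5 at 6 h, against 14.7% (547) of SETD5-kept islands. The primed state with SETD5-V5 in both 6 h replicates, meaning H3K4me1 at 0 h and SETD5-V5 together, was found at 6.93% (95) of SETD5-absent islands and 23.3% (869) of SETD5-kept islands. These combinations are counts and were not tested.

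The differences were seen across the range of scores. Among islands with a score percentile of 20 or less, SETD5-V5 at 6 h was found in both replicates at 21.7% of 526 SETD5-absent and 43.4% of 836 SETD5-kept islands. Among those above 60, it was found at 13.6% of 88 and 52.5% of 786. The intervals of the classes did not overlap in any of 4 score ranges for SETD5-V5. For H3K4me1 at 0 h they overlapped only above 60, where 36.4% of SETD5-absent islands (27.1 to 46.8%) and 43.9% of SETD5-kept islands (40.5 to 47.4%) carried it. For H3K4me1 at 48 h they overlapped only at 20 or less, with 49.6% (45.4 to 53.9%) and 56.2% (52.8 to 59.5%).

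**Figure D2:**
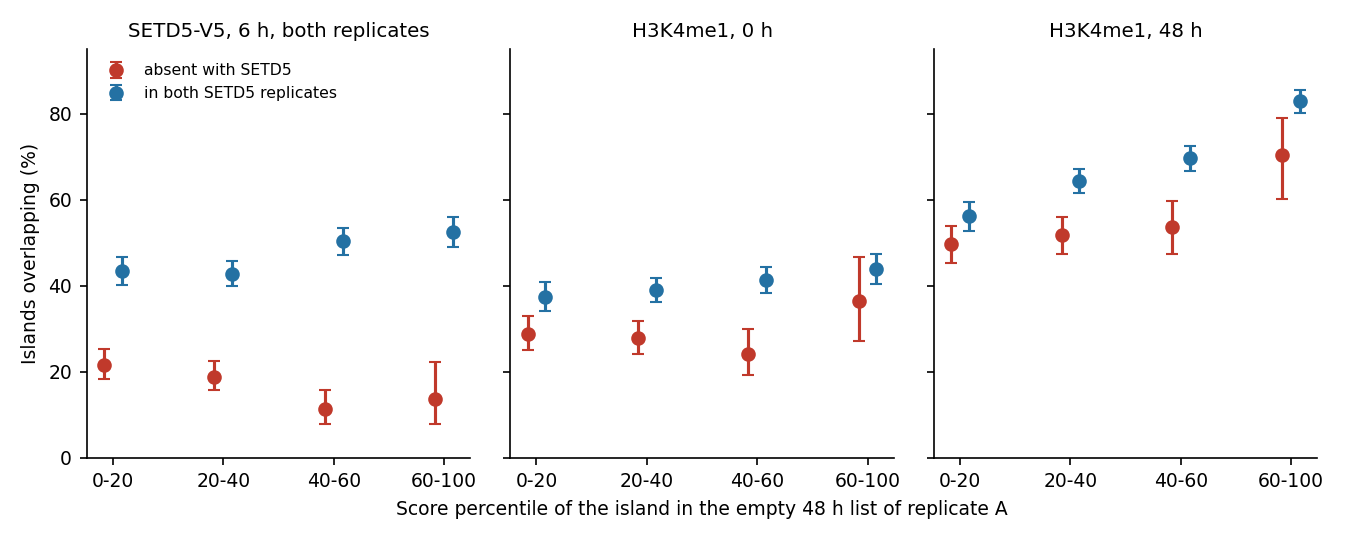
Share of SETD5-absent and SETD5-kept islands that overlap SETD5-V5 at 6 h in both replicates, H3K4me1 at 0 h or H3K4me1 at 48 h (%, y axis), by the score percentile of the island in the list of empty-virus cells at 48 h, replicate A (x axis); points are shares with Wilson 95% intervals. SETD5-V5 goes from 21.7% to 13.6% of SETD5-absent islands between the lowest and the highest range and from 43.4% to 52.5% of SETD5-kept islands.

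SETD5 cells at 0 h, which the selection did not use, seldom had H3K27ac at these sites. The classes were set, however, by the same cells at 48 h. A site listed in SETD5 cells at both times could not be SETD5-absent, so the class definition favours a difference in this direction. Islands of these cells overlapped 2.41% (33, replicate A) and 2.55% (35, replicate B) of SETD5-absent islands. At SETD5-kept islands the shares were 17.7% (659) and 16.3% (608), although none of them had an island in empty-virus cells at 0 h. Presence in both replicates was found at 0.949% (13) of SETD5-absent, 11% (410) of SETD5-kept and 7.62% of all distal induced islands, with an adjusted odds ratio of 0.0733 (0.0420 to 0.128, adjusted p = 3.49e-19, binomial regression). It was 0.205 without replicate A, 0.185 without replicate B, 0.118 with the replicates as separate outcomes, 0.145 with lists of equal number and 0.0487 when at least 50% of the island had to be covered. Leaving out all islands with H3K27ac in SETD5 cells at 0 h, an alternative added after the data were seen, gave odds ratios of 0.276 for SETD5-V5 at 6 h, 0.715 for H3K4me1 at 0 h and 0.657 for H3K4me1 at 48 h, while SETD5-V5 at 0 h lost its call (0.595, adjusted p = 0.0974, binomial regression).

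Among 10 motifs, the PPAR-RXR direct repeat was more frequent and the glucocorticoid response element less frequent in SETD5-absent than in SETD5-kept islands. In the central 1000 bp, at least 1 PPAR-RXR repeat on either strand was found in 1.53% of SETD5-absent islands (21, Wilson 95% interval 1.00 to 2.33%) and in 0.537% of SETD5-kept islands (20, 0.348 to 0.827%). It was found in 0.690% of 10581 distal 48 h islands with H3K27ac in both 0 h replicates and in 0.705% of all distal 48 h islands. The odds ratio against SETD5-kept islands, adjusted for GC content and length, was 3.14 (1.67 to 5.91, adjusted p = 0.000981, binomial regression). It was 1.82 without replicate A, 1.90 without replicate B and 1.82 over whole islands, each with an adjusted p below 0.05. The sequences printed above show the repeat in 13 of these islands. The 1 island with a repeat on chromosome 18, from which no sequence is printed, is not described further. Of the other 20, 10 had H3K4me1 at 0 h, 16 had it at 48 h, 16 had SETD5-V5 at 6 h in neither replicate and 1 had it in both. Over all SETD5-absent islands these shares were 28.1%, 52.5%, 69.1% and 18.2%, and the difference was not tested. Their score percentiles ran from 10.6 to 63.5 in the replicate A list, and in the replicate B list from 1.83 (Tppp3) to 58.8 (Radil).

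The glucocorticoid response element, the palindrome bound by the glucocorticoid receptor, was found in 1.24% of SETD5-absent islands (17) and 3.09% of SETD5-kept islands (115), with an odds ratio of 0.382 (0.228 to 0.639, adjusted p = 0.000798, binomial regression). Its share in distal islands with H3K27ac in both 0 h replicates was 1.01% and that in all distal 48 h islands was 1.51%. In islands found in a single SETD5 replicate it was 1.36% (9). The share in SETD5-kept islands was thus the highest of these, and the other classes were not tested against each other. C/EBP matches were found in 48% of SETD5-absent and 48.3% of SETD5-kept islands, with an odds ratio of 0.979 (0.863 to 1.11, adjusted p = 0.825, binomial regression), and in 45.1% of all distal 48 h islands. AP-1 (TGAGTCA or TGACTCA), the site of Fos and Jun proteins, was found in 27.7% and 28.2% (odds ratio 0.925, 0.805 to 1.06) and passed the test only without replicate A (0.875). The TEAD (GGAATG, 42.8% and 42.8%) and RUNX (TGTGGTT, 23.9% and 23.7%) motifs had odds ratios of 0.982 (0.865 to 1.11) and 1.01 (0.874 to 1.17). The cyclic AMP response element (TGACGTCA) had 1.31% and 0.698%, and the NF1 palindrome 0.657% and 0.966%, with odds ratios of 1.74 (0.95 to 3.20) and 0.628 (0.301 to 1.31). For the cyclic AMP response element the odds ratio was 0.913 without replicate A and 1.09 without replicate B. The NF1 palindrome passed only with replicate B islands as the unit (0.360). STAT (TTCNNNGAA, 34.2% and 30.6%) and EBF (CCCNNGGG, 23.1% and 19.5%) motifs passed the test with odds ratios of 1.18 (1.04 to 1.35) and 1.23 (1.05 to 1.43). In all distal 48 h islands the shares were 30.9% (STAT) and 22.8% (EBF), and in single-replicate islands 29.8% and 25.2%. For EBF, SETD5-absent islands were thus near the overall share and SETD5-kept islands below it. Neither motif passed when a replicate was left out. STAT also lost its call with the central 2000 bp (1.15) and over whole islands (1.09), and EBF with replicate B islands as the unit (1.09). A match is a description of the sequence and not a bound site.

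**Figure D3:**
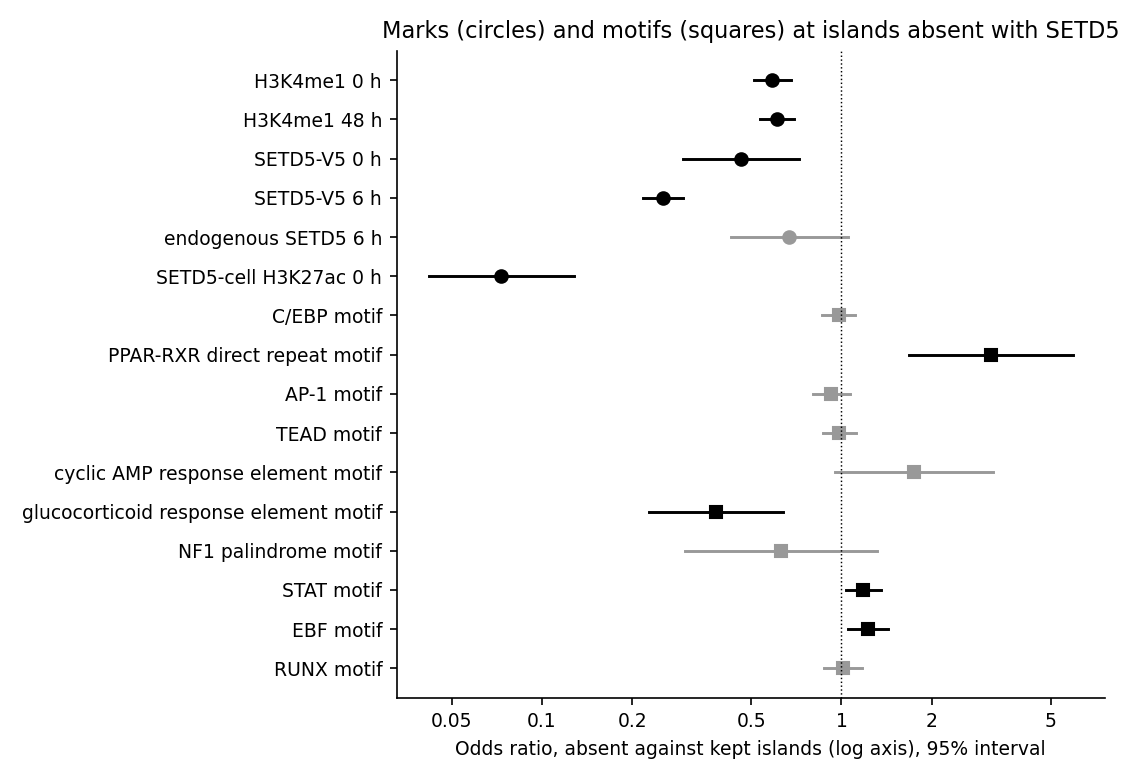
Odds ratios (log axis) of carrying each mark (circles) or motif (squares) for SETD5-absent against SETD5-kept islands, with 95% intervals; black, adjusted p below 0.05, and grey, above. SETD5-V5 at 6 h lies at 0.254, H3K4me1 at 0.588 and 0.609, the glucocorticoid response element at 0.382 and the PPAR-RXR repeat at 3.14.

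The positions of SETD5-absent islands were close to those of the other induced islands, except that more lay outside genes. By their centres, 56.4% (773) were intergenic, 41.4% (567) intronic and 2.19% (30) exonic, against 46.1%, 50.7% and 3.11% of SETD5-kept islands and 51.9%, 45.6% and 2.54% of all distal 48 h islands. The median distance to the nearest protein-coding start was 30.6 kb (quartiles 11.6 and 96.6 kb), against 29.6 kb for SETD5-kept islands. A protein-coding start lay within 50 kb of 61.1% of SETD5-absent and 63.1% of SETD5-kept islands. The mean GC content of the central 1000 bp was 44.5% ± 5.26 and 44.1% ± 5.31 (SD over islands). The SETD5-absent islands were mostly single: 1084 had no other within 20 kb, 106 groups held 2, 20 held 3, 2 held 4 and 1 held 6. The group of 6 spanned 43.6 kb within Smoc1 (chr12:82173201-82216800), which encodes an extracellular calcium-binding matricellular protein. A SETD5-kept island lay within 20 kb of 20.2% (277) of SETD5-absent islands. These positions were not tested.

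The 10 SETD5-absent islands that ranked highest in both empty-virus 48 h lists showed how strong such regions can be. Mgll encodes monoacylglycerol lipase, the last enzyme of triglyceride breakdown, and the island chr6:88675601-88685000 in its intron, 5.48 kb from the nearest start, was 9400 bp long in both replicates, with score percentiles of 88.8 and 86.5. It had H3K4me1 islands of 800 bp at 0 h and 4200 bp at 48 h and no SETD5-V5 island at any time. The highest-ranking island, chr3:10287801-10296400, lay in the Fabp12 gene of the fatty acid binding protein cluster and was 8600 bp (A) and 14800 bp (B) long, without SETD5-V5 and with H3K4me1 (2400 bp) at 48 h only. An 8400-bp island (8000 bp in B) in Smoc1, chr12:82208401-82216800, and a 7200-bp island (12800 bp in B) 5.26 kb upstream of Agpat2, chr2:26461601-26468800, had H3K4me1 at both times and no SETD5-V5. Agpat2 encodes an acyltransferase of triglyceride synthesis that is needed for normal fat tissue. The others were nearest to Lima1 (chr15:99685201-99689200), Fis1, Fbxo4, Slc25a26, Sgcd and Nudt3. Of the 10 islands, 3 overlapped SETD5-V5 at 6 h in both replicates (Lima1, Fbxo4 and Nudt3), 5 had H3K4me1 at 0 h and 10 had it at 48 h. The Lima1 island, in an intron of the gene for an actin-binding LIM protein, had SETD5-V5 islands of 16600 and 9400 bp at 6 h, and one of 3200 bp in replicate A at 0 h.

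With H3K4me1 at 0 h and SETD5-V5 in both 6 h replicates, the pattern of a primed region bound by SETD5, the 5 highest-ranking SETD5-absent islands were nearest to Lima1, Nudt3, Rpl34, Pdia4 and Agpat9. The Agpat9 island (chr5:101289001-101295400, intronic, 16.8 kb from the start) was 6400 and 3200 bp long, with SETD5-V5 islands of 3400 and 3000 bp and H3K4me1 of 2000 bp at 0 h and 4600 bp at 48 h. Agpat9 encodes a glycerol-3-phosphate acyltransferase, which begins triglyceride synthesis. The Pdia4 island (chr6:47757201-47760800) also had H3K27ac in SETD5 cells at 0 h, of 3800 bp in replicate B. The Rpl34 island lay 154 kb from its start, so that the name gives only its position.

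Within 50 kb, 837 SETD5-absent islands were nearest to 734 protein-coding genes, of 3620 distal induced islands with such a gene (23.1%). Most genes had 1 such island, 87 had 2 or more and 12 had 3 or more. Plcb1, a phospholipase C that acts below G protein-coupled receptors, had 6, beside 4 SETD5-kept islands and 2 found in a single SETD5 replicate. SETD5-V5 in both 6 h replicates was found at 4 of the 6, for instance at chr2:135145801-135147200, where SETD5-V5 islands were 5600 and 7000 bp long. Fabp12 had 4, with 1 SETD5-kept island. A further 10 genes were tied at 3. The first 3 of them in alphabetical order were Cd200, which encodes a membrane glycoprotein, with 2 SETD5-kept islands, Chst15, a chondroitin sulfate sulfotransferase, with 0, and Mgll with 2. The others were Pemt, Ralgapa2, Rorb, Slc23a2, Tns1, Trib1 and Uhrf2.

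The Fabp12 islands lie in a neighbourhood chosen for display after its values were seen. Within 100 kb of the start of Fabp4, the adipocyte fatty acid binding protein, there were 4 SETD5-absent and 2 SETD5-kept islands. All 4 were listed in both empty-virus 48 h replicates, none had SETD5-V5 in any library, and H3K4me1 was found at the highest-ranking one alone. The island that lies nearest to Fabp4, chr3:10237001-10240000, was 3000 and 1600 bp long and holds the PPAR-RXR repeat printed above under Fabp12. Around Fabp4 itself H3K27ac was listed in both SETD5 48 h replicates. Within 100 kb of the starts of Smoc1 the centres of 9 SETD5-absent and 0 SETD5-kept islands were found, and a SETD5-kept island began 95.2 kb from the outermost start, with its centre beyond 100 kb. The promoter at the start of Smoc1 had H3K27ac in both empty-virus 48 h libraries and in none of the other 6. Further along the gene lay H3K27ac islands that SETD5 cells also formed at 48 h, and SETD5-V5 islands at 6 h lay over most of these and over none of the SETD5-absent islands.

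**Figure D4:**
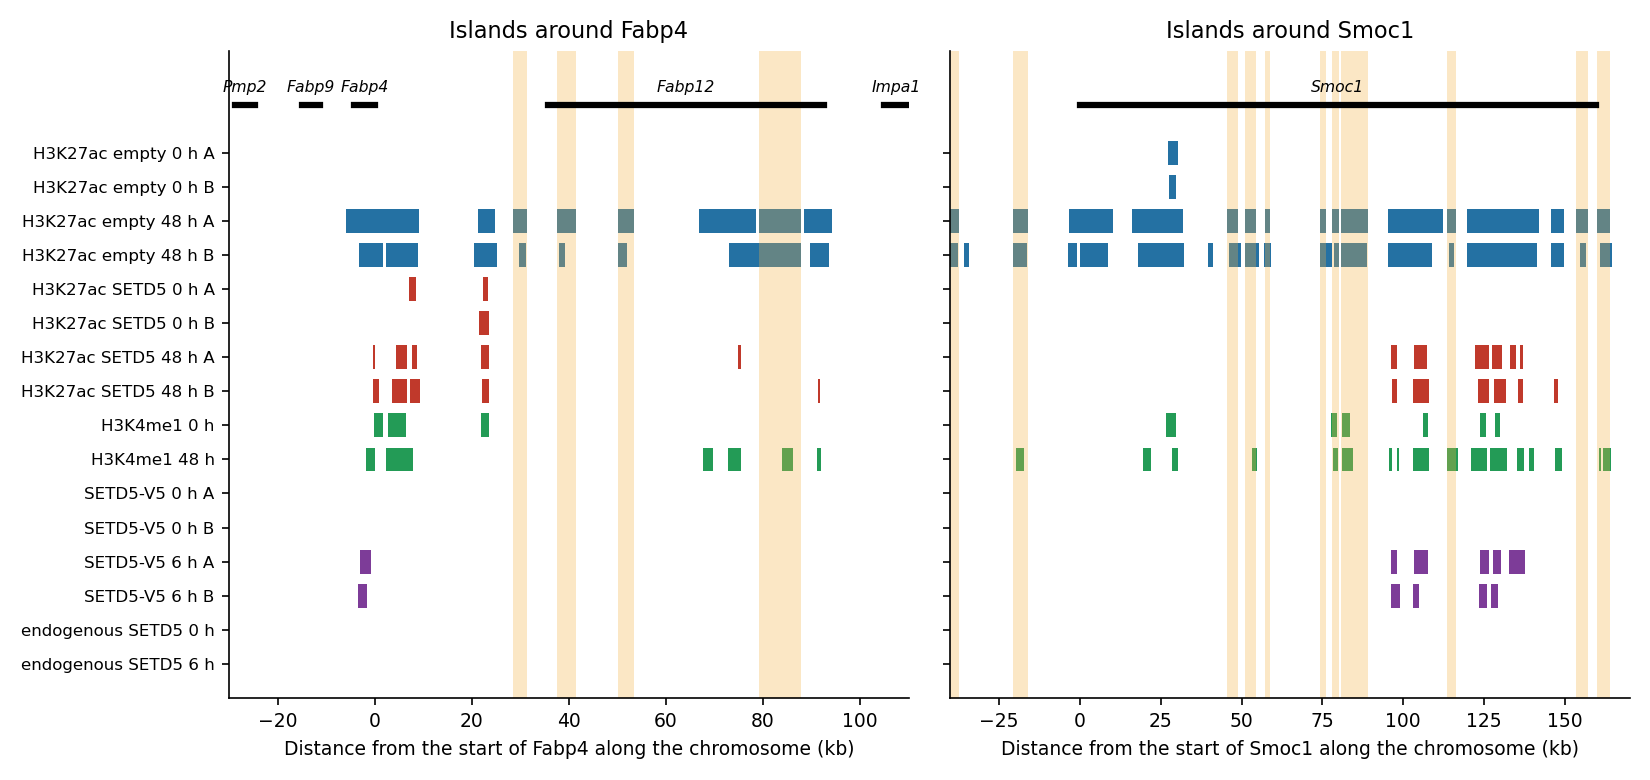
Islands of all 16 libraries (rows) around the starts of Fabp4 and Smoc1 (x axis, distance along the chromosome in kb); blue, H3K27ac of empty-virus cells, red, H3K27ac of SETD5 cells, green, H3K4me1, purple, SETD5; black bars are genes and shaded columns the SETD5-absent islands. The 4 shaded islands beyond Fabp4 and those within Smoc1 have no island in any H3K27ac row of SETD5 cells and none of SETD5-V5.

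Against 23.1% of the islands near all genes, SETD5-absent islands made up 50% of those near the lists of fatty acid and triglyceride synthesis and of lipid droplet and lipolysis genes, and 5.88% of those near clock and glucocorticoid responsive genes. Of 14 lists, fatty acid and triglyceride synthesis had 9 SETD5-absent islands of 18 distal induced islands, near 7 of its 9 genes with any (Agpat2, Agpat3, Dgat2, Elovl3, Lpin2, Me1 and Pdk4). Pdk4, a regulatory kinase on this list and not an enzyme of synthesis, had 1 SETD5-absent and 2 SETD5-kept islands. Lipid droplet and lipolysis had 4 of 8, at Mgll (3) and Cidec (1), which encodes a lipid droplet protein. Fatty acid oxidation and peroxisomes had 2 of 4, both at Ppargc1b, a coactivator of mitochondrial genes. Adipokines and secreted proteins had 3 of 8, near Adipoq, Nampt and Sfrp5, and insulin signalling and glucose transport had 6 of 20, near Akt2, Grb10, Insr, Irs2 and Tbc1d4. Clock and glucocorticoid responsive genes had 1 of 17, at Dusp1, a phosphatase of MAP kinases, and preadipocyte and anti-adipogenic genes had 0 of 4. Fatty acid uptake and binding had 2 of 9 (Acsl1 and Cd36), extracellular matrix 4 of 15 (Col12a1, Col4a1, Lamb1 and Vcan) and corepressor and SETD5 complex genes 3 of 10 (Tob1 and Ski). Bone and cartilage genes had 1 of 1 (Spp1), endothelial and blood genes 1 of 1 (Pecam1), and muscle genes had no distal induced island. These are small counts, which were not tested.

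**Figure D5:**
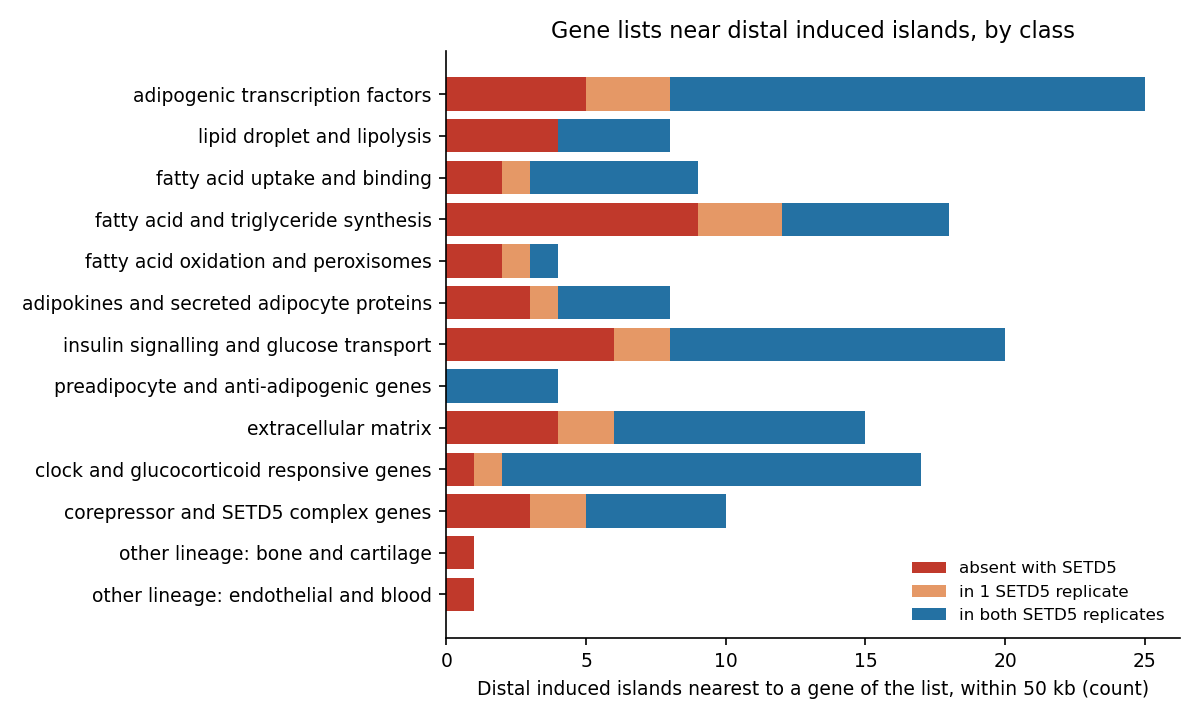
Number of distal induced islands whose nearest protein-coding start belongs to each gene list and lies within 50 kb (x axis), by class (colours). Fatty acid and triglyceride synthesis holds 9 SETD5-absent of 18 islands, adipogenic transcription factors 5 of 25 and clock and glucocorticoid responsive genes 1 of 17; the list of muscle genes has none and is not drawn.

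Adipogenic transcription factors had 5 SETD5-absent islands of 25 within 50 kb, near Cebpa, Ebf1, Nfia, Nfib and Xbp1, or 20%, against the 23.1% of all genes. The count depended on the reach: it was 0 of 9 within 20 kb, 5 of 31 within 100 kb and 1 of 19 with all annotated genes. By island centres, within 100 kb of the start of Cebpa, which encodes C/EBPα, there was 1 SETD5-absent island among 4 distal induced islands, with 2 SETD5-kept. It lay 27.1 kb upstream (chr7:35876401-35878000, intergenic), was 1600 bp long in both replicates, ranked at the 5.19th and 10.8th percentiles, and had H3K4me1 of 800 bp at 48 h and no SETD5-V5. Within 100 kb of the starts of Pparg there were 0 SETD5-absent islands, 2 SETD5-kept islands, 2 with an island in a single SETD5 replicate and 7 distal islands with H3K27ac at 0 h. The Adipoq island, 2.28 kb downstream of the start of the adiponectin gene (chr16:23147601-23150400, intronic), was 2800 and 1400 bp long, with percentiles of 35.8 and 5.29 and neither H3K4me1 nor SETD5-V5. The Cd36 island (chr5:17344401-17346600), in the gene for a fatty acid transporter, was 2200 and 1400 bp long and had H3K4me1 of 1800 bp at 48 h. The Akt2 and Acsl1 islands (chr7:28407601-28412200 and chr8:47526801-47534800) had no H3K4me1 and no SETD5-V5 in any library, and were 4600 and 8000 bp long in replicate A. The Dusp1 island, 14.5 kb upstream, lay in SETD5-V5 islands of 30600 and 20400 bp at 6 h. The Col4a1 island (chr8:11239201-11243400) lay in SETD5-V5 islands of 273600 and 220400 bp and in an endogenous SETD5 island of 135600 bp at 6 h. Of the 28 islands named by the gene lists, 3 had SETD5-V5 in both 6 h replicates, 7 had H3K4me1 at 0 h and 19 had it at 48 h.

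Promoter H3K27ac of the same genes is given as a description, since it comes from the libraries of the selection. Of 499 genes with SETD5-absent islands as their only distal induced islands, 68.7% (A) and 68.3% (B) had a promoter island in empty-virus cells at 48 h and 64.5% and 65.9% in SETD5 cells at 48 h. Of 1779 genes with other induced islands only, these shares were 74.0% and 73.1%, and 74.7% and 75.4%. In empty-virus cells at 0 h they already differed, with 63.1% and 63.3% of the 499 genes and 69.6% and 68.5% of the 1779. A promoter island present in both empty-virus 48 h replicates and in neither replicate of empty-virus cells at 0 h nor of SETD5 cells at 48 h was found at 2.20% (11) of the former and 0.787% (14) of the latter. It was found at 3.40% (8) of the 235 genes with both kinds of islands. The 11 genes included Adipoq and Smoc1, and the 8 included Fabp12, Lypd6b, Slc28a1 and Trim29. A promoter island induced in the same way but present in both SETD5 48 h replicates was found at 2.00% (10) of the 499 genes. The shares were 2.98% (7) of the 235 genes and 3.49% (62) of the 1779.

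As a check of the cell type, promoters of 8 preadipocyte genes (Pdgfra, Pdgfrb, Thy1, Col1a1, Col3a1, Vim, Fn1 and Dlk1) had H3K27ac in all 8 H3K27ac libraries, and those of muscle (Myod1, Myog), endothelial (Pecam1, Cdh5) and liver (Alb) genes had it in none. Of the blood markers, Ptprc had it in none and Csf1r in 3 libraries at 0 h. Of 6 adipocyte genes, Cebpa and Pparg had it in every library. Fabp4 and Plin1, a lipid droplet coat protein, had it in all 48 h libraries, and Adipoq in both empty-virus 48 h libraries alone. Cd36 had it in replicate A of empty-virus cells at 48 h alone. SETD5 cells at 48 h thus kept promoter H3K27ac at 4 of the 6 adipocyte genes in both replicates, where empty-virus cells had it at 6 and 5.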

How the data were processed

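The analysis used 16 lists of islands from 3T3-L1 cells, 1 per library. The authors aligned the reads by Bowtie2 or ELAND (mm9) and called islands in each library with SICER or SICER2 (windows of 200 bp), and each deposited list gives a position and the caller's score, with no reads or counts. The island numbers of the replicate A, H3K4me1 and endogenous SETD5 lists equal those the study gives for SICER2. For the replicate B lists the study does not say which caller was used. List lengths differ between libraries, and overlap depends on list length and on the threshold. Overlaps were counted at 1 bp or more, and absence is absence from the list. The GENCODE annotation and genome of NCBIM37 (mm9) gave promoters, genes and sequence, with coordinates counted from 1. Marks and motifs were compared between SETD5-absent and SETD5-kept islands by logistic regression (statsmodels 0.14.6), with log2 length and log2 score of the replicate A island as covariates for marks, GC content and log2 length for motifs, and Benjamini-Hochberg adjustment over 16 tests. Motifs were sought as consensus matches on both strands. Intervals of shares are Wilson 95% intervals and cover counting error only. The islands, gene lists and tests were chosen with earlier results of these data known.

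The islands named were the 10 with the highest lower-of-two score percentile, up to 3 per gene list within 50 kb, those of the 5 genes nearest to most islands (ties in alphabetical order), the 5 highest with H3K4me1 at 0 h and SETD5-V5 in both 6 h replicates, and those within 100 kb of Cebpa or Pparg. The islands with a PPAR-RXR repeat and the loci drawn were chosen after their values were seen. Alternatives changed the overlap, the score threshold, the number of islands per list, the promoter window, the island unit, the covariates, the motif window and the replicates used. Overlap counts were checked against bedtools 2.31.1 and the fits were tested on simulated data. Python 3.11.15, pandas 2.3.3, scipy 1.17.1, pysam 0.24.0 and matplotlib 3.10.9 were used. The study tested read counts, which these lists do not hold.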

Additional observations from a re-analysis of the deposited data

Results flagged for a closer look

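Endogenous SETD5 at 0 h entered no comparison between the island classes. Its list overlapped 8 of 1370 SETD5-absent islands (0.584%, Wilson 95% interval 0.296 to 1.15%), above the 0.219% that a count of 0 would allow (3 counts of 1370). This says only that the overlap was not 0, and the overlap that chance would give was not computed. At SETD5-kept islands the share was 0.885% (33 of 3727). The difference between the classes at 0 h was not tested.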

How the results depend on the processing

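The number of SETD5-absent islands depended on the score and on the replicates required. It was 1370, 108 with empty-virus islands above the median score of their list, and 2879 to 2912 when 1 replicate was left out. Under the other 6 alternatives it was between 1277 and 2011.

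SETD5-V5 at 6 h and H3K4me1 at both times stayed below 1 and past the threshold under every alternative run, as did H3K27ac of SETD5 cells at 0 h where it could be fitted. For H3K27ac of SETD5 cells the class definition favours this direction. Left-out replicates gave 0.276 to 0.396 for SETD5-V5 at 6 h, 0.501 to 0.687 for SETD5-V5 at 0 h, 0.632 to 0.636 for H3K4me1 at 0 h, 0.636 to 0.722 at 48 h and 0.185 to 0.205 for H3K27ac of SETD5 cells at 0 h. SETD5-V5 at 0 h lost its call with length as the sole covariate (0.622) and, in an alternative added after the data were seen, without islands that SETD5 cells had at 0 h (0.595). Endogenous SETD5 at 6 h passed when no SETD5 48 h island was allowed within 1000 bp (0.515) and went above 1 without replicate A (1.05, against 0.793 without replicate B). The cause of these changes was not tested. The gain in the SETD5-V5 share from 0 h to 6 h was 19.2 to 21.5 points with 1 replicate left out.

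The replicate letters are not labelled as a batch. Differences in island presence between A and B were hardly correlated between groups (correlations between -0.015 and 0.022 across 17588 distal islands). These islands were all required in both empty-virus 48 h replicates, and that group was left out. The check therefore cannot tell whether a batch was shared. With the letter as a replicate block the odds ratios were 0.243 for SETD5-V5 at 6 h, 0.447 at 0 h and 0.118 for H3K27ac of SETD5 cells at 0 h, and the block changed no call.

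Of the motifs, 4 passed (PPAR-RXR, glucocorticoid response element, STAT and EBF), and 2 to 3 with 1 replicate left out. The PPAR-RXR repeat and the glucocorticoid response element passed without either replicate, and AP-1 joined them without replicate A (0.875). With replicate B islands the NF1 palindrome passed (0.360) and EBF did not (1.09), and STAT did not with 2000 bp (1.15) or over whole islands (1.09). The PPAR-RXR repeat ranged from 1.82 to 2.89 and the glucocorticoid response element from 0.332 to 0.493 over the alternatives run, and both kept their call. Motifs that had not passed the test on all data changed side: TEAD (1.02 without replicate A and 0.996 without B, 1.02 with replicate B islands, 1.18 over whole islands), RUNX (0.907 without replicate A and 1.03 without B, 0.925 with replicate B islands, 0.955 with 2000 bp, 0.999 over whole islands), AP-1 (1.01 over whole islands) and the cyclic AMP response element (0.913 without replicate A and 1.09 without B). The share of islands near a gene was 61.1%, 70.3% for all annotated genes, 40.2% within 20 kb and 75.8% within 100 kb.

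Depth within islands is unknown, absence means below a threshold, and 86.6% of the SETD5-absent islands ranked below the middle of their list.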

Other observations

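With the cell types exchanged, 7357 distal islands were shared by both SETD5 48 h replicates and had no island in SETD5 cells at 0 h. Neither empty-virus 48 h list held 2400 of them (32.6%), against the 23.8% of the selection described above. The SETD5 48 h lists are longer (39068 and 39451 islands) than the empty-virus 48 h lists (31292 and 33131), and with every list held to an equal number the selection gave 33.6% (2011 of 5982). It was 31.7% and 37.0% without replicate A and B. The exchanged share was not computed with lists of equal number. The 4 states of H3K4me1 and the SETD5-V5 shares were not compared for these islands.

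Other SETD5-absent islands lay in groups with no other distal induced island between them. A group of 4 spanned 16 kb near Pemt (chr11:59874801-59890800), an enzyme of phosphatidylcholine synthesis, and another 4 spanned 46.8 kb within the region of Plcb1 (chr2:134924801-134971600). Groups of 3 were found near Tns1 (18 kb) and Mgll (22.6 kb).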
